A study of Mus musculus with 8 samples.

Results

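The chaperones of the heat shock and endoplasmic reticulum (ER) families were followed in soleus, a slow hindlimb muscle, of mice aged 2 months. The set holds 43 genes listed by symbol, 14 cytosolic, 7 small heat shock, 4 mitochondrial and 18 of the ER, out of 24033 genes in the deposited table. All 43 were found once and all passed the filter on low values, a mean of at least 1 FPKM (fragment counts scaled to transcript length and library size) over the libraries. The 4 K15-SKO mice had the genotype Myogenin-Cre/+;K15F/F, and the 4 MyoCre mice Myogenin-Cre/+, so every animal carried the Cre recombinase. Myogenin is expressed in cells of the skeletal muscle lineage, and fibres share the whole-muscle sample with vessels, nerve, connective tissue and blood that this Cre does not target. Strain and sex are not given in the labels, and no group with the floxed alleles alone was analysed here. The comparison asks how deletion of Klf15, a Kruppel-like transcription factor of muscle metabolism, is reflected in soleus RNA.

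Chaperones bind unfolded stretches of other proteins and help them to fold, refold or be degraded. Cytosolic HSP70 and HSP90 proteins use ATP together with J-domain co-chaperones, and are induced through heat shock factors that bind alternating GAA and TTC units in promoters. Small heat shock proteins hold unfolded clients without ATP and are abundant in slow muscle, where alpha B-crystallin and its relatives guard the contractile filaments. HSP60, HSP10 and mortalin fold proteins inside mitochondria. ER chaperones fold secreted and membrane proteins, and are induced through XBP1 and ATF6 in the unfolded protein response.

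The libraries were first compared as a whole. Klf15 itself had 16.2 ± 2.58 FPKM in K15-SKO and 41.6 ± 12.7 FPKM in MyoCre muscle (SD, n = 4 each; log2 fold change -1.28, limma adjusted p = 0.0315). In every K15-SKO library it lay below the lowest MyoCre value, and with 1 library left out the adjusted p ran from 0.000861 to 0.218, passing without K15-SKO replicate 2 and without MyoCre replicate 4. Slow fibre markers such as Myh7 were abundant in both genotypes, with 1385 ± 598.1 FPKM in K15-SKO and 1609 ± 698.3 FPKM in MyoCre muscle. The fast myosin Myh2, which was called higher, had 738.1 to 2095 FPKM in K15-SKO libraries and is listed at 0 in all 4 MyoCre libraries, and Myh4 had 11.0 to 285.0 FPKM in K15-SKO and 3.48 to 66.7 FPKM in MyoCre libraries. Whether the 0 values of Myh2 reflect absent RNA or the quantification was not tested, so they are not read as a change in expression. Depth, estimated from the lowest values, was 9260000 to 14800000 fragments in K15-SKO and 8210000 to 22100000 in MyoCre libraries. K15-SKO replicate 3 stood apart. Its scaling factor by the median of gene ratios was 0.796, against 0.953 to 1.06 in the other K15-SKO and 0.972 to 1.15 in the MyoCre libraries, and it was the lowest of the 4 K15-SKO libraries in 27 of the 43 chaperones and in 56% of all 12535 genes tested. For many genes results are therefore also given without it.

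No chaperone passed the threshold. Of the 43 genes, 0 were lower and 0 higher in K15-SKO muscle at a limma adjusted p of 0.05 over all genes tested, where 0.183% of all genes tested were called lower and 0.367% higher (0.55% in either direction). Without the genes listed at 0 in 1 genotype, 12 of 12376 genes were called, against 69 of 12535 with them. Most calls behind these shares thus fell away when such genes were left out. At an unadjusted p under 0.05, 8 of 43 (18.6%) were lower and 0 higher, against 3.43% and 0.901% of all genes tested. These were Hspa1a, Hspa1b, Hspe1, Hspa5, Pdia3, Pdia4, Hyou1 and Manf. In 7 of 43 genes (16.3%) all K15-SKO values were under the lowest MyoCre value, against 2.72% of all genes tested, and in 0 were all above the highest MyoCre value, against 0.63%. They were Hspa1a, Hspa1b, Hspb8, Hspe1, Hspa5, Pdia3 and Manf. Median-of-ratios scaling left Hspa1a, Hspb8 and Hspe1 (1.52% of all genes), and removal of each library's trend over transcript GC content left Hspa1a, Hspa1b and Hspe1 (2%).

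Log2 fold changes, K15-SKO minus MyoCre on the log2(FPKM + 0.5) scale, were negative in 39 of 43 chaperones. They were also negative in 77% of all genes tested, whose median was -0.12. Median-of-ratios scaling moved that median to 0.00 and left 33 of 43 chaperones negative. The median of the 43 was -0.31, which is 0.19 below that of all genes tested and 0.12 below it without K15-SKO replicate 3. By class the median was -0.35 for the ER, -0.32 for mitochondria, -0.21 for the cytosol and -0.09 for small heat shock proteins. Relative to all genes these medians were -0.23, -0.20, -0.09 and 0.03, and without K15-SKO replicate 3 they were -0.20, -0.09, -0.05 and -0.08. All 18 ER members were below 0 and 17 of them below the median of all genes, as were all 4 mitochondrial members; with median-of-ratios scaling Canx and Herpud1 of the ER stood at 0.0025 and 0.11.

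**Figure D1:**
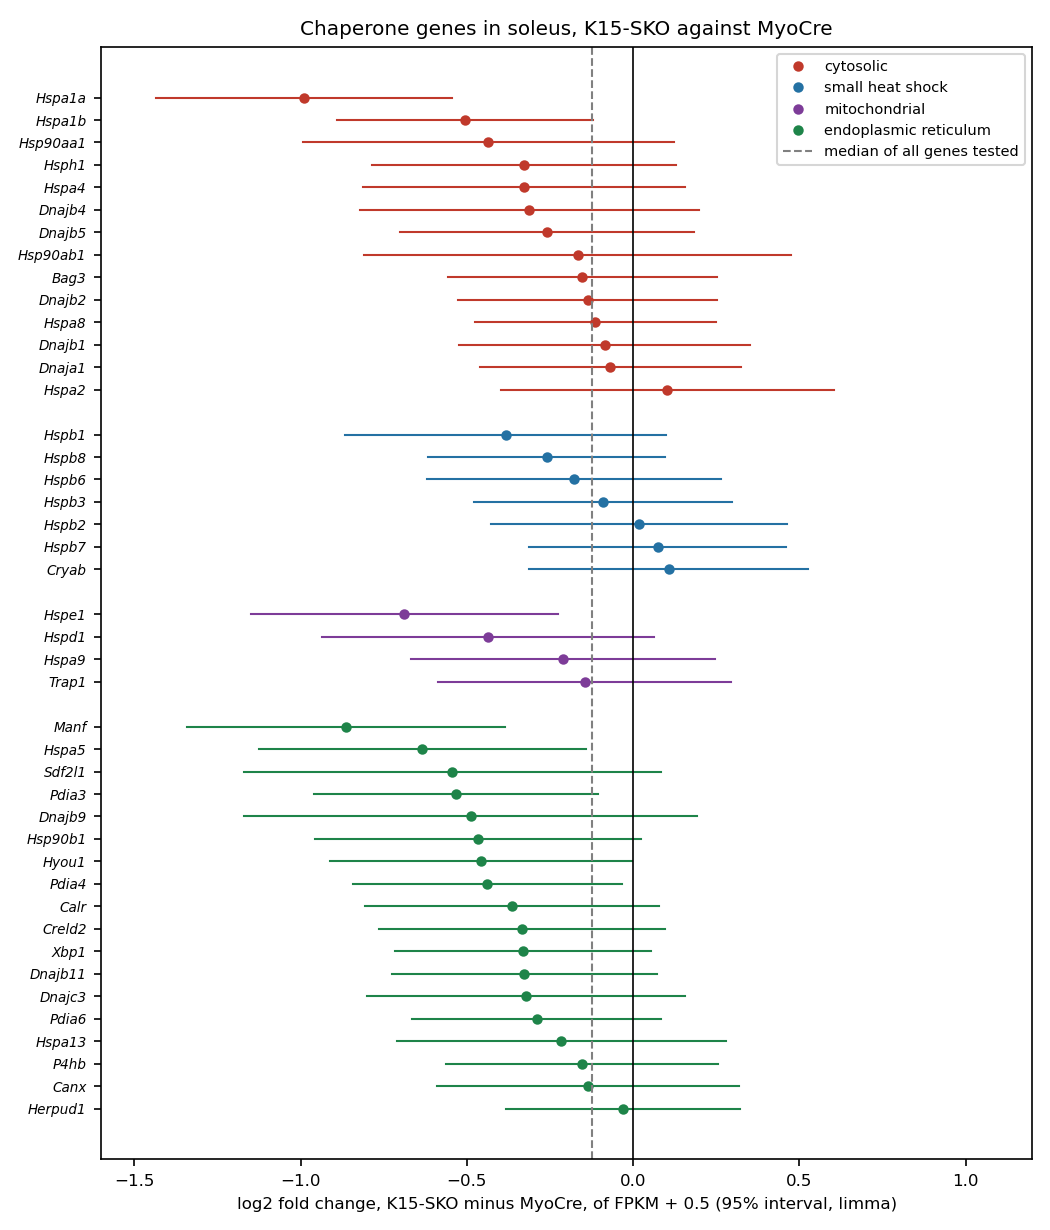
Log2 fold change (horizontal axis, K15-SKO minus MyoCre, points with 95% intervals from limma) of each chaperone gene (vertical axis), coloured by class. The solid line marks 0 and the dashed line the median of all genes tested, -0.12; Hspa1a at -0.99 and Manf at -0.86 lie farthest to the left.

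The inducible HSP70 genes were the lowest cytosolic members relative to MyoCre. Hspa1a and Hspa1b encode nearly the same stress-inducible protein from neighbouring genes of a single exon on chromosome 17 (mm10 34969190 to 34972156 and 34956436 to 34959238, minus strand). Hspa1a had 2.97, 4.59, 3.71 and 2.96 FPKM in K15-SKO replicates 1 to 4, against 9.54, 8.44, 6.80 and 5.60 FPKM in MyoCre replicates 1 to 4. The highest K15-SKO library thus lay below the lowest MyoCre library, and K15-SKO replicate 3 lay inside the range of the other K15-SKO libraries. The mean was 3.56 ± 0.78 FPKM in K15-SKO and 7.59 ± 1.74 FPKM in MyoCre muscle, or 46.8% (log2 fold change -0.99, SE 0.21, limma adjusted p = 0.0568). The adjusted p, which just missed the threshold, ranged from 0.000881 to 0.278 over 21 alternative fits and passed in 5 of them. On the estimated depth these values rest on 82 to 163 fragments per K15-SKO library and 164 to 553 per MyoCre library.

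Hspa1b had 2.25, 2.28, 2.58 and 1.92 FPKM in K15-SKO libraries, against 4.00, 3.89, 3.14 and 2.72 FPKM in MyoCre libraries. These groups did not overlap either, with a log2 fold change of -0.51 (SE 0.18, limma adjusted p = 0.804). The split between the pair is uncertain, because 58.8% of the 50-base words of the Hspa1a transcript occur in Hspa1b and 62.3% of those of Hspa1b in Hspa1a. Hspa1a also overlaps the gene Gm20481 by 2225 bases on the other strand. The sum of Hspa1a and Hspa1b depends little on the split, since their transcripts have similar lengths (2967 and 2803 bases). It was 5.22, 6.87, 6.29 and 4.88 FPKM in K15-SKO, against 13.5, 12.3, 9.94 and 8.32 FPKM in MyoCre libraries, or 52.7% of MyoCre on average. Immediate early genes, which respond to handling and stress within minutes, were also lower in sum. Their 10 genes summed to 86.7 to 114.3 FPKM in K15-SKO and 123.3 to 159.8 FPKM in MyoCre libraries, 8 of the 9 tested had negative fold changes (77% of all genes did), 0 passed the threshold, and none of the 10 was at 0 in every library. After median-of-ratios scaling their sums overlapped, with 90.9 to 143.7 FPKM in K15-SKO and 106.9 to 164.4 FPKM in MyoCre libraries. At an unadjusted limma p under 0.05, 3 of the 9 were lower and 0 higher, against 3.43% and 0.901% of all genes tested. On the deposited scale, within MyoCre muscle the immediate early sum was highest in replicate 4, where the Hspa1a and Hspa1b sum was lowest. Within K15-SKO muscle both sums were lowest in replicate 4. Among the immediate early genes Btg2 had 24.9 ± 3.22 and 40.4 ± 10.3 FPKM in K15-SKO and MyoCre muscle (limma adjusted p = 0.499). Their part in the Hspa1a and Hspa1b values was not tested.

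The abundant cytosolic chaperones differed by less than the spread between libraries. Hspa8, the constitutive HSP70 and the most abundant cytosolic member, had 337.3, 348.9, 259.5 and 325.4 FPKM in K15-SKO and 366.7, 320.9, 359.4 and 321.6 FPKM in MyoCre libraries (log2 fold change -0.11, 95% interval -0.48 to 0.25, and -0.02 without K15-SKO replicate 3). Hsp90ab1, the constitutive HSP90, ranged widely within each genotype, with 222.1, 254.2, 124.3 and 137.3 FPKM in K15-SKO and 255.6, 235.1, 224.9 and 113.2 FPKM in MyoCre libraries. In both of these genes the groups overlapped, and their fold changes turned slightly positive under some alternatives. The inducible Hsp90aa1 had 7.97, 10.4, 3.60 and 7.33 FPKM in K15-SKO and 10.9, 9.99, 8.72 and 8.47 FPKM in MyoCre libraries. Its log2 fold change was -0.44 (limma adjusted p = 0.957) and -0.15 without K15-SKO replicate 3, the library that was lowest. Other genes hold 51.4% of the 50-base words of Hspa8 and 58.5% of those of Hsp90aa1, so reads may be shared with them.

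Other stress-inducible cytosolic genes did not show the separation of Hspa1a. Dnajb1, the J-domain partner of HSP70 that is induced with it, had 3.97, 5.53, 6.29 and 3.87 FPKM in K15-SKO and 3.92, 5.95, 5.70 and 5.22 FPKM in MyoCre libraries (log2 fold change -0.08, 95% interval -0.52 to 0.35, and -0.20 without K15-SKO replicate 3). Hsph1, an HSP110 that exchanges the nucleotide of HSP70, and Hspa4, its relative, both had log2 fold changes of -0.33, which became -0.13 and -0.10 without K15-SKO replicate 3. Bag3, a co-chaperone that hands damaged filament proteins to autophagy, averaged 37.2 ± 5.40 FPKM in K15-SKO and 41.5 ± 7.25 FPKM in MyoCre muscle (log2 fold change -0.15). Dnajb4 and Dnajb5, muscle-rich J-domain proteins, had -0.31 and -0.26, Dnajb2 -0.14 and Dnaja1 -0.07. Without K15-SKO replicate 3 these were -0.08 for Dnajb4, -0.10 for Dnajb5, -0.07 for Dnajb2 and 0.06 for Dnaja1, and Bag3 had -0.04. Hspa2 alone among cytosolic members had a positive value, 0.10, and 0.03 without that library. The limma adjusted p was 0.957 or higher for each of these 9 genes. Of the 50-base words of Dnaja1, 18.7% occur in other genes.

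**Figure D2:**
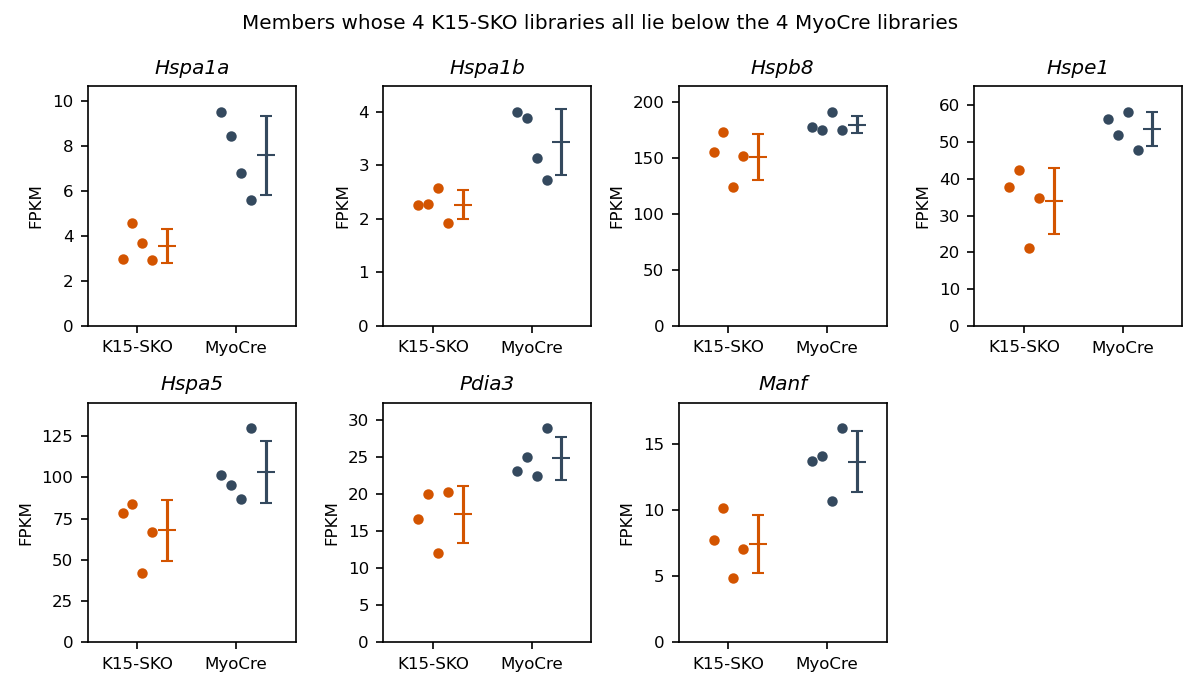
FPKM per library (vertical axes, from 0) of the 7 chaperones whose 4 K15-SKO libraries (left in each panel) all lay below the 4 MyoCre libraries (right). Points are libraries and bars beside them the mean ± SD; Hspa1a had 2.96 to 4.59 FPKM in K15-SKO and 5.60 to 9.54 FPKM in MyoCre libraries, while for Hspb8 the gap between 173.0 and 174.9 FPKM was small.

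Small heat shock genes were the most abundant class, and with all libraries they had the median nearest to 0. Without K15-SKO replicate 3 they had -0.08 relative to all genes, farther out than the -0.05 of the cytosolic class. Their 7 members summed to 2623 ± 307.3 FPKM in K15-SKO and 2645 ± 385.5 FPKM in MyoCre muscle, 99.2% of the MyoCre level, and 109.8% of it after median-of-ratios scaling, with overlapping libraries on both scales. Cryab, which encodes alpha B-crystallin, led all 43 genes with 1148, 1625, 1247 and 1130 FPKM in K15-SKO and 1271, 1060, 1449 and 1001 FPKM in MyoCre libraries (log2 fold change 0.11, 95% interval -0.31 to 0.53). Hspb6, a partner of alpha B-crystallin, had 429.7, 498.3, 483.2 and 629.1 FPKM in K15-SKO and 604.2, 410.7, 700.6 and 614.8 FPKM in MyoCre libraries, with overlapping groups (log2 fold change -0.18). Hspb7, a filamin-binding member, averaged 462.5 ± 49.8 FPKM in K15-SKO and 441.6 ± 70.5 FPKM in MyoCre muscle, a difference smaller than the spread within either genotype.

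Hspb8, which works with Bag3, had 154.9, 173.0, 124.0 and 151.5 FPKM in K15-SKO and 177.6, 175.0, 191.2 and 174.9 FPKM in MyoCre libraries. The groups did not overlap, but the gap between them was small beside the spread in K15-SKO muscle (log2 fold change -0.26, SE 0.17, limma adjusted p = 0.957). Without K15-SKO replicate 3 the log2 fold change of Hspb8 was -0.17. Hspb1, the stress-inducible HSP25 of mice, had 85.4, 128.8, 129.3 and 80.4 FPKM in K15-SKO and 187.7, 127.7, 126.9 and 109.5 FPKM in MyoCre libraries. Here 2 of the K15-SKO libraries were low and MyoCre replicate 1 was high, as it was for Hspa1a (log2 fold change -0.38, limma adjusted p = 0.957). Without K15-SKO replicate 3 the log2 fold change of Hspb1 was -0.49. Reads of Hspb1 can also match the pseudogene Hsp25-ps1, which holds 51.7% of its 50-base words. Hspb2 and Hspb3, which encode a muscle complex, had log2 fold changes of 0.02 and -0.09, and of -0.02 and -0.11 without K15-SKO replicate 3. Hspb2 and Cryab overlap by 1030 bases on opposite strands of chromosome 9, and without a stated strand setting their reads cannot be told apart there.

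Among mitochondrial chaperones the lowest relative to MyoCre was Hspe1, which encodes HSP10, the lid of the HSP60 folding chamber. Hspe1 had 37.7, 42.3, 21.2 and 34.8 FPKM in K15-SKO, against 56.2, 51.9, 58.2 and 47.8 FPKM in MyoCre libraries. The groups did not overlap, and K15-SKO replicate 3 was the lowest library. The mean was 34.0 ± 9.04 FPKM in K15-SKO and 53.5 ± 4.64 FPKM in MyoCre muscle, or 63.5% (log2 fold change -0.69, SE 0.21, limma adjusted p = 0.554). Without K15-SKO replicate 3 the log2 fold change was -0.48. Hspd1, which encodes HSP60 itself, had 48.1, 56.2, 26.9 and 58.6 FPKM in K15-SKO and 61.3, 56.9, 61.7 and 67.3 FPKM in MyoCre libraries. Only K15-SKO replicate 4 thus reached into the MyoCre range. The log2 fold change of Hspd1 was -0.44 (limma adjusted p = 0.957), and -0.19 without K15-SKO replicate 3. Copies elsewhere in the genome hold 44.8% of the 50-base words of Hspd1 and 8.2% of those of Hspe1. The mitochondrial HSP70 Hspa9 averaged 174.4 ± 44.5 FPKM in K15-SKO and 196.7 ± 18.1 FPKM in MyoCre muscle, with a log2 fold change of -0.21, and of -0.00019 without K15-SKO replicate 3. Trap1, the mitochondrial HSP90, had a log2 fold change of -0.15, and of -0.06 without that library.

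Hspe1 and Hspd1 are read in opposite directions from neighbouring starts on chromosome 1, and the same site lies in the promoter windows of both. The heat shock element was searched as GAANNTTCNNGAA or TTCNNGAANNTTC, on both strands, in the 250 bases before each start (RefSeq, GRCm38.p6). It was found in these 2 of the 34 chaperones with a promoter sequence (5.88%) and in 0.514% of 27025 genes. The stretch holds 4 alternating units, so that 2 overlapping matches cover it, the first of them 89 bases before the Hspe1 start. In the Hspe1 window the capitals mark this stretch.
Hspe1, chr1:55087898-55088147, plus strand: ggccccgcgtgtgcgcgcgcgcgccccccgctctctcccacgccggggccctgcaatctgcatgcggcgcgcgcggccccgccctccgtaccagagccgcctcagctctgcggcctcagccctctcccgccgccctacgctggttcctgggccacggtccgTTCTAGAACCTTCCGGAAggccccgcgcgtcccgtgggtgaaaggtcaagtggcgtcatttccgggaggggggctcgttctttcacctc
The windows of Hspa1a and Hspa1b held no match in these letters. The search allowed no changed base in a unit, so less exact elements were not counted in any gene. The missing match therefore does not show that these windows lack a heat shock element. A match describes the sequence and is no evidence of binding in these muscles.

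ER chaperones had the lowest class median in the fit to all 8 libraries. The mitochondrial median was lower without K15-SKO replicate 1, without K15-SKO replicate 4 or without MyoCre replicate 1. On the deposited scale the summed level of the ER class separated the genotypes. The 18 genes summed to 507.2, 554.7, 349.9 and 459.5 FPKM in K15-SKO, against 597.7, 581.8, 562.8 and 594.8 FPKM in MyoCre libraries. MyoCre libraries were close to each other, and K15-SKO libraries were spread out below them, replicate 3 being the lowest and replicate 2 the highest. After median-of-ratios scaling the sums overlapped, with 439.7 to 521.9 FPKM in K15-SKO and 487.9 to 611.8 FPKM in MyoCre libraries. On the deposited scale, on average K15-SKO muscle had 80.1% of the MyoCre sum. In the cytosolic class it had 88.9% and in the mitochondrial class 82.9%, and there the libraries of the genotypes overlapped. After median-of-ratios scaling the mitochondrial sums did not overlap, with 234.8 to 325.3 FPKM in K15-SKO and 331.4 to 337.7 FPKM in MyoCre libraries. In bulk muscle, fewer cells of a type and less RNA per cell cannot be told apart.

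**Figure D3:**
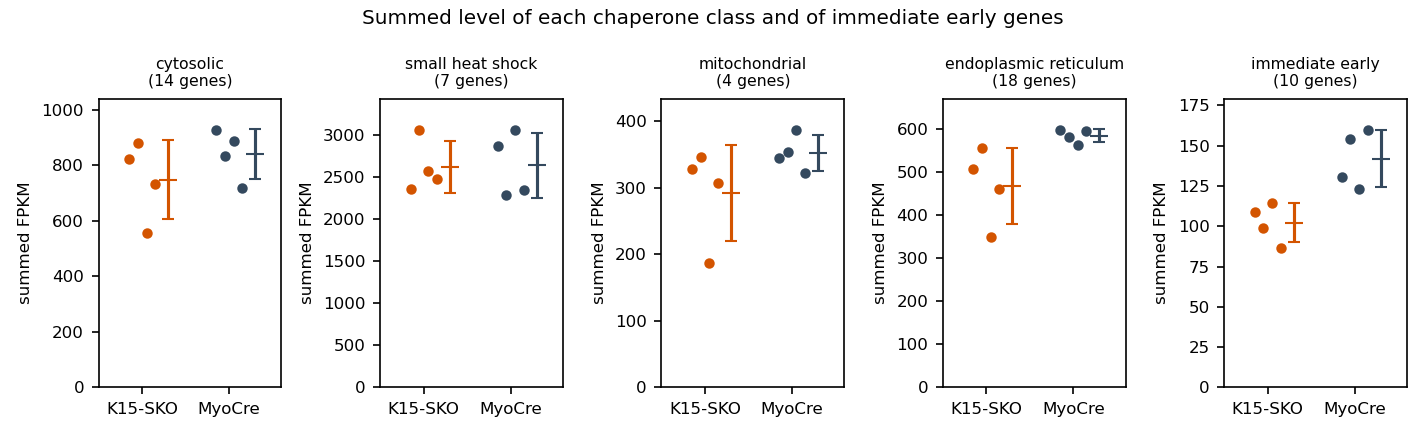
Summed FPKM (vertical axes, from 0) of each chaperone class and of 10 immediate early genes in K15-SKO (left) and MyoCre (right) libraries, with mean ± SD beside the points. On the deposited scale, ER chaperones reached 349.9 to 554.7 FPKM in K15-SKO and 562.8 to 597.7 FPKM in MyoCre libraries, and small heat shock genes overlapped; the ER and immediate early sums overlap too after median-of-ratios scaling.

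Manf, a small ER protein that stabilises client complexes of BiP, had the lowest ER value relative to MyoCre. It measured 7.74, 10.1, 4.85 and 7.04 FPKM in K15-SKO, against 13.7, 14.1, 10.7 and 16.2 FPKM in MyoCre libraries, and these did not overlap. The mean was 7.44 ± 2.18 FPKM in K15-SKO and 13.7 ± 2.28 FPKM in MyoCre muscle, or 54.4% (log2 fold change -0.86, SE 0.22, limma adjusted p = 0.219). Hspa5, which encodes BiP, the ER HSP70, had 78.7, 83.8, 42.2 and 66.7 FPKM in K15-SKO, against 101.2, 95.2, 87.0 and 129.8 FPKM in MyoCre libraries. K15-SKO replicate 3 was lowest and MyoCre replicate 4 highest (log2 fold change -0.63, SE 0.23, limma adjusted p = 0.83). Without K15-SKO replicate 3 the log2 fold changes were -0.69 for Manf and -0.42 for Hspa5. The Manf gene model overlaps Dcaf1 and Rbm15b, so reads may be shared between them.

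The disulfide isomerases differed among themselves. Pdia3, which works on glycoproteins with calnexin and calreticulin, had 16.7, 20.1, 12.1 and 20.4 FPKM in K15-SKO, against 23.1, 25.0, 22.5 and 28.9 FPKM in MyoCre libraries (log2 fold change -0.53, SE 0.20, limma adjusted p = 0.876). Its groups did not overlap, while those of Pdia4 did, with 4.98 to 8.29 FPKM in K15-SKO and 7.71 to 9.15 FPKM in MyoCre libraries (log2 fold change -0.44, limma adjusted p = 0.957). P4hb, the most abundant isomerase, had 67.3, 76.6, 58.6 and 50.2 FPKM in K15-SKO and 71.0, 79.3, 74.6 and 55.5 FPKM in MyoCre libraries (log2 fold change -0.15), and Pdia6 had -0.29. Hyou1, the nucleotide exchange factor of BiP, averaged 6.09 ± 1.57 FPKM in K15-SKO and 8.45 ± 1.56 FPKM in MyoCre muscle (log2 fold change -0.46). Hsp90b1, the ER HSP90, had -0.47, the J-domain genes Dnajb9, Dnajb11 and Dnajc3 had -0.49, -0.33 and -0.32, and Sdf2l1, a partner of Dnajb11, had -0.54 on 0.914 to 4.30 FPKM. Without K15-SKO replicate 3 the values were -0.25 for Hsp90b1, -0.19, -0.20 and -0.09 for Dnajb9, Dnajb11 and Dnajc3, and -0.19 for Pdia6. They were -0.37 for Pdia3, -0.37 for Pdia4, -0.32 for Hyou1 and -0.12 for P4hb, while Sdf2l1 moved the other way, to -0.69.

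The lectin chaperones and the regulators of the response complete the class. Calr averaged 42.4 ± 10.7 FPKM in K15-SKO and 54.0 ± 7.71 FPKM in MyoCre muscle (log2 fold change -0.36, and -0.28 without K15-SKO replicate 3). Canx, its membrane-bound relative, had 73.5, 73.1, 39.0 and 64.4 FPKM in K15-SKO and 68.7, 62.6, 70.1 and 65.5 FPKM in MyoCre libraries, where 2 of the K15-SKO libraries exceeded all MyoCre libraries (log2 fold change -0.13, and 0.07 without K15-SKO replicate 3). Xbp1, whose spliced mRNA encodes a transcription factor of the unfolded protein response, averaged 24.9 ± 4.26 FPKM in K15-SKO and 31.2 ± 2.59 FPKM in MyoCre muscle (log2 fold change -0.33, and -0.22 without K15-SKO replicate 3). The gene-level values do not separate its spliced form. Creld2 had -0.34, and Hspa13 had -0.22 with K15-SKO replicate 3 and 0.02 without it. Herpud1, which recruits the ER degradation machinery and is a target of the same response, had 61.5, 53.1, 55.7 and 59.96 FPKM in K15-SKO and 59.1, 62.7, 63.7 and 50.3 FPKM in MyoCre libraries, with a log2 fold change of -0.03 (95% interval -0.38 to 0.32).

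Promoters of the ER class carried the ER stress response element more often than promoters at large. Searched as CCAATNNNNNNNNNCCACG on both strands in the 250 bases before the start, it was found in Calr, Canx, Creld2, Dnajc3, Hsp90b1, Hspa5 and Pdia6, 7 of 15 ER chaperones with a sequence (46.7%), in 0 of 19 others of the set, and in 0.13% of all 27025 genes. The ERSE-II motif, ATTGG and CCACG separated by 1 base, was found in Herpud1 alone of the set, and the UPRE motif TGACGTG in Hspa5 alone (0.037% and 1.85% of all genes). The windows of Hspa5 with its lowest values, of Hsp90b1 with 2 elements, and of Herpud1, whose level hardly differed, are shown with the matches in capitals.
Hspa5, chr2:34771840-34772089, plus strand: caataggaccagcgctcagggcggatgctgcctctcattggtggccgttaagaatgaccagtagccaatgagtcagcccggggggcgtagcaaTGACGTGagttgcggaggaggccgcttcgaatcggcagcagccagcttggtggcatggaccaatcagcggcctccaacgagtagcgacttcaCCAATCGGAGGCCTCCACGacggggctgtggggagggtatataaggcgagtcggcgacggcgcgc
Hsp90b1, chr10:86705445-86705694, minus strand: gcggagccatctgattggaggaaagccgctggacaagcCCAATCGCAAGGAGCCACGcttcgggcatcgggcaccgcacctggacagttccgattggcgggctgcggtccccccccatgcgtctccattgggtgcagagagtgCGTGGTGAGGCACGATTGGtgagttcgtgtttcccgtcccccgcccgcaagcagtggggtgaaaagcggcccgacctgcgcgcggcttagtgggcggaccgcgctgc
Herpud1, chr8:94386179-94386428, plus strand: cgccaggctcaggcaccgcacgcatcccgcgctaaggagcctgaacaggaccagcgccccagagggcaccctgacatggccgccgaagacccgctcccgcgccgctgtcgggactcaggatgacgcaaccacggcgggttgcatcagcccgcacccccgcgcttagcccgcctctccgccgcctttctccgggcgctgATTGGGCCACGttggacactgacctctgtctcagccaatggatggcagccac
The element begins 65 bases before the start in Hspa5, 107 and 212 bases before it in Hsp90b1, and ERSE-II begins 52 bases before it in Herpud1. Among ER genes with a sequence, the 7 genes with it had a median log2 fold change of -0.34 (-0.63 to -0.13), and the 8 without it one of -0.38 (-0.54 to -0.03), given as a description without a test. Manf, the lowest ER member, Hyou1 and Hspa13 had no sequence and are in neither count, and Herpud1 is counted among the 8.

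The low values of K15-SKO replicate 3 followed the base composition of the transcripts. Among the 8 chaperones whose longest transcript had under 45% GC, it had 0.445 to 0.623 times the median of the other K15-SKO libraries. Among the 8 with over 55% GC it had 0.724 to 1.51 times that median. Over the 43 genes Spearman's rho between GC content and its deviation from those libraries was 0.81, and over 12497 genes tested it was 0.57; genes within a library share its depth and composition, and no p is given. The other libraries had rho between -0.56 and 0.42 over the 43 genes, and between -0.59 and 0.43 over the 12497. Over the 12497 genes K15-SKO replicate 4 (-0.55) and MyoCre replicate 4 (-0.59) departed about as far as K15-SKO replicate 3, in the opposite direction. MyoCre replicate 4, with the most negative value, was the highest library for Dnajb9, Hspa5, Manf and Pdia3, among others. For Hspa1a and Hspa1b it was the lowest MyoCre library. Without MyoCre replicate 4 the log2 fold changes were -0.52 for Hspa5, -0.46 for Pdia3, -0.78 for Manf and -1.12 for Hspa1a. In that fit Hspa5 and Pdia3 no longer had an unadjusted limma p under 0.05, while Manf and Hspa1a did. Between transcript length and the deviation of K15-SKO replicate 3, rho was -0.51 over the 43 genes and -0.20 over the 12497. Hspa1a (58.9% GC) and Hspa1b (58.1%) were not low in K15-SKO replicate 3, whereas Hspe1 (45.5%), Hspa5 (45.6%), Pdia3 (46.9%) and Manf (51.0%) were. After each library's GC trend was removed, the log2 fold changes were -0.95 for Hspa1a (limma adjusted p = 0.0111), -0.75 for Manf, -0.53 for Hspe1, -0.47 for Hspa5 and -0.38 for Pdia3, with adjusted p-values of 0.134 to 0.627 for the last 4 genes.

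**Figure D4:**
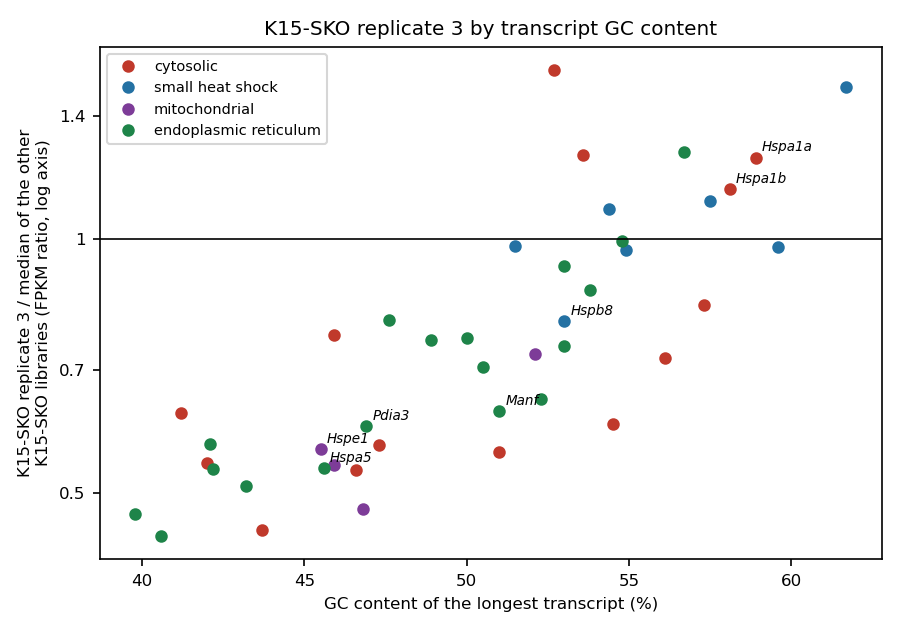
FPKM of K15-SKO replicate 3 divided by the median of the other K15-SKO libraries (vertical axis, log scale) against the GC content of the longest transcript (horizontal axis, percent), 1 point per chaperone. Genes under 45% GC lie between 0.445 and 0.623, and Hspa1a at 58.9% GC lies above 1.

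**Figure D5:**
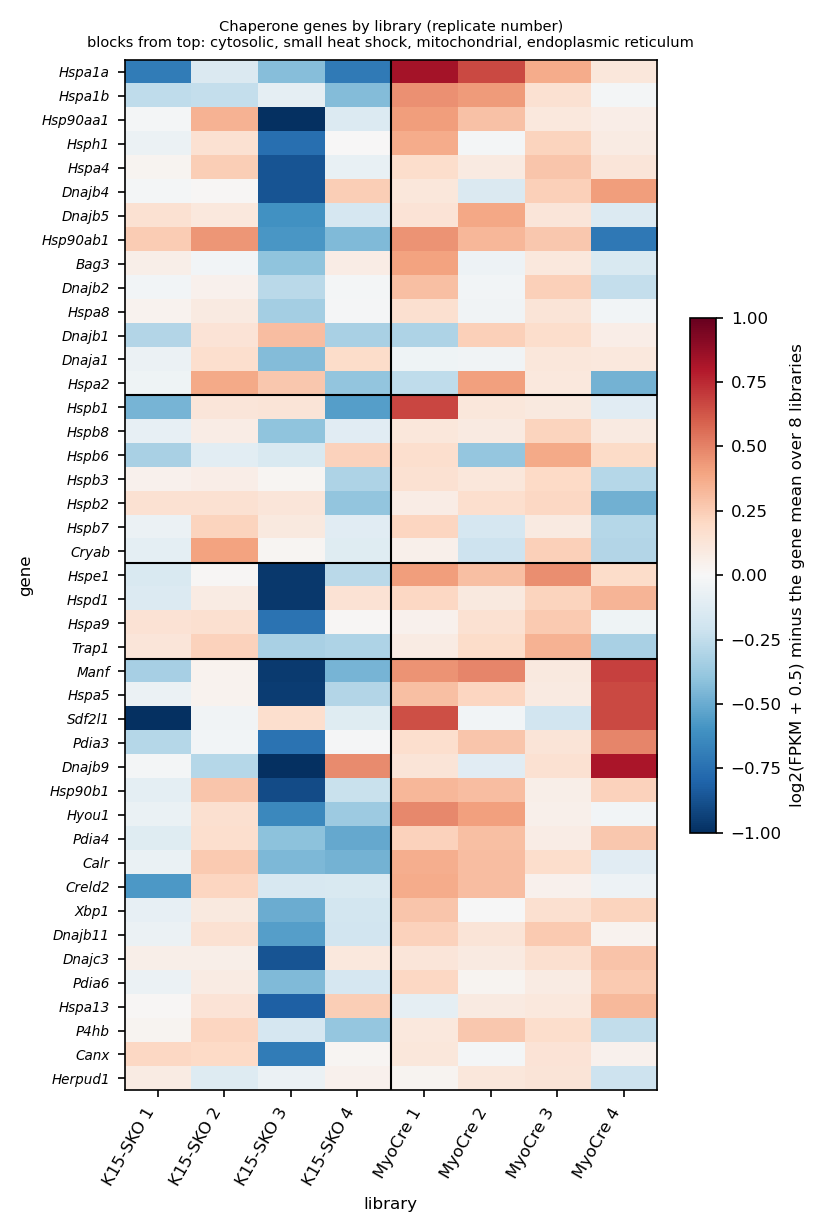
Deviation of each chaperone (rows, in blocks by class) from its mean over the 8 libraries, on the log2(FPKM + 0.5) scale, in K15-SKO (left 4 columns) and MyoCre (right 4 columns) libraries. K15-SKO replicate 3 is blue in most mitochondrial and ER genes and near white in most small heat shock genes. Hspa1a is below its mean in all K15-SKO columns, only slightly so in replicate 2.

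Co-chaperones and sensors outside the set had medians nearer to that of all genes. Among 19 heat shock factors and HSP90 or HSP70 co-chaperones, 0 passed the threshold and the median was -0.16. Bag2, a co-chaperone of HSP70, had the smallest p there, with 11.7 ± 2.18 FPKM in K15-SKO and 16.2 ± 2.92 FPKM in MyoCre muscle (log2 fold change -0.45, limma adjusted p = 0.957), and Ptges3, the HSP90 co-chaperone p23, had -0.31. The 8 subunits of the cytosolic chaperonin TRiC had values of -0.25 to -0.14, Tcp1 and Cct2 having the smallest p. Their median was -0.23, and -0.10 relative to all genes, farther out than the -0.09 of the cytosolic class. The 13 table rows of further HSP70 and J-domain genes had a median of -0.14, led by Dnaja4 (-0.30) and Dnaja2 (-0.33). Mitochondrial co-chaperones and proteases had a median of -0.18 over 10 genes, with the unfoldase Clpx at -0.44 and the mortalin co-chaperone Grpel1 at -0.24.

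Sensors of the unfolded protein response lay near the median of all genes. The 12 sensors and effectors had a median of -0.18, with Chac1, a glutathione-degrading target of ATF4 and CHOP, at 14.9 ± 2.37 FPKM in K15-SKO and 12.0 ± 3.19 FPKM in MyoCre muscle (log2 fold change 0.33) and Eif2ak3, the sensor PERK, at -0.28. The 15 tested genes of ER-associated degradation and ER redox had a median of -0.21, with the oxidase Ero1l at -0.43 and Txndc5 at -0.31. None of these lists had a member past the threshold over all genes tested, and at an unadjusted p under 0.05 they held Bag2 alone.

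Markers of other cells also varied between the libraries. Fibroblast markers summed to 393.6 to 684.8 FPKM in K15-SKO and 529.6 to 921.5 FPKM in MyoCre libraries, and tendon markers to 113.3 to 221.0 and 139.0 to 272.1 FPKM. Macrophage and leukocyte markers summed to 14.5 to 40.3 FPKM in K15-SKO and 32.2 to 36.6 FPKM in MyoCre libraries. In each of these lists all 6 fold changes were negative, as were 77% of those of all genes tested. Below the median of all genes lay 5 of 6 fibroblast, 5 of 6 tendon and 6 of 6 macrophage and leukocyte markers. Negative values were found in 1 of 6 endothelial and 0 of 5 red cell genes. Red cell genes reached 2034 FPKM in K15-SKO replicate 3, against 320.3 to 577.4 FPKM in the other K15-SKO and 284.0 to 458.9 FPKM in the MyoCre libraries. Endothelial markers summed to 105.3 to 130.2 FPKM in K15-SKO and 81.2 to 113.0 FPKM in MyoCre libraries. No marker of these lists was at 0 in every library. Secretory cells such as fibroblasts are rich in ER chaperones, and the part of these cells in the ER values was not tested.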

How the data were processed

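RNA was measured in 8 soleus samples. Per the submitters' processing notes the authors used STAR, Cufflinks and Cuffdiff with build mm10, and deposited 1 table with a value per gene and library; the notes give no versions, and the annotation release and strand setting are not stated in the sources used here. The deposited values are taken as FPKM, inferred from these tools and from values that are not whole; the table holds 0 further columns of values. Depth is not stated and was estimated as the library size at which low values in single-transcript genes longer than 1 kb come closest to whole fragments, with a weak optimum in K15-SKO replicates 3 and 4 and MyoCre replicate 4.

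Values were tested as log2(FPKM + 0.5) with limma 3.58.1 in R 4.3.3 (trend, robust, genotype alone, two-sided), on the 12535 genes averaging 1 FPKM or more, with Benjamini-Hochberg adjustment over all of them. Changes of genes with low values are understated on this scale. Whether mice of a group were littermates is not stated. Gene models, transcript GC content and shared 50-base words came from GENCODE M21, whose identifiers matched all 43 genes (29 with the same version); promoters came from RefSeq GRCm38.p6, which held 34 of the 43. The members and lists were chosen with earlier results of these data known. Values per library are given for Hspa1a, Hspa1b and, per class, the 3 members with the smallest p and the 2 most abundant; those of Dnajb1, Canx and Herpud1 were added after they were seen. In further lists, the 2 genes with the smallest p are named. Alternatives covered pseudocount, filter, scaling, variance estimation, genes listed at 0 in 1 genotype, a replicate block and each library left out.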

Additional observations from a re-analysis of the deposited data

Results flagged for a closer look

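In 4 of 88 groups of 4 libraries, 1 value stood far from the other 3, where chance at 1 in 20 gives 4.4. Dnajc3, the ER co-chaperone p58IPK, had 7.27 FPKM in K15-SKO replicate 3 and 14.2 to 14.7 FPKM in the other K15-SKO libraries. Hspb2 and Hspb3, partners in a muscle complex, had 58.1 and 23.4 FPKM in K15-SKO replicate 4, against 83.3 to 85.2 and 29.5 to 30.6 FPKM in the other K15-SKO libraries. Hspb8 had 191.2 FPKM in MyoCre replicate 3 and 174.9 to 177.6 FPKM in the other MyoCre libraries.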

How the results depend on the processing

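The 43 chaperones gave 0 calls in 16 of 21 alternative fits. With library weights 3 were lower (Hspa1a, Hspa1b and Manf), and with the replicate number as a block, with GC correction, without K15-SKO replicate 2 and without MyoCre replicate 4 it was 1 each, Hspa1a; leaving out 1 library gave 0 to 1. None was higher in any of the 21 fits. GC correction, and median-of-ratios scaling without K15-SKO replicate 3, were added after the data were seen. At an unadjusted p under 0.05, Hspa1a, Hspe1 and Manf were lower in all 21 fits, Hspa5 and Pdia3 in 19, Hspa1b in 17 of 20, and Pdia4 and Hyou1 in 10 each. The median of the set relative to all genes stayed negative, from -0.21 to -0.12 with 1 library left out. In 14 of 43 genes the log2 fold change had both signs over the alternatives. Among the genes given per library, Cryab gave -0.0105 without K15-SKO replicate 2 (highest 0.205, without MyoCre replicate 3), Hspa9 gave 0.00054 with library weights, and Hspa8 gave 0.0255 and 0.0188 with median-of-ratios and upper-quartile scaling. Hsp90ab1 ranged from -0.434 without MyoCre replicate 4 to 0.00081 without K15-SKO replicate 3. Median-of-ratios scaling without that library gave 0.0528 for Hsp90ab1, 0.0331 for Hspa8 and 0.0518 for Hspa9, and GC correction 0.0463 for Hspa8. The log2 fold change of Klf15 did not pass at -1.28 with no filter, without robust estimation or without the genes listed at 0 in 1 genotype, at -1.15 with scaling by median of ratios, by quantiles or by upper quartile, or at -1.25 with median-of-ratios scaling without K15-SKO replicate 3, and ranged from -1.55 to -1.18 with 1 library left out. The cause was not tested. Replicate numbers were not taken as pairs, since the labels do not explain them and 1 of 4 same-numbered correlations of deviations was not above 0.1 (0.10, 0.23, 0.00 and 0.28 for replicates 1 to 4); K15-SKO replicates 2 and 4 alone correlated best with their own number. Genes with few fragments, such as Sdf2l1 with an estimated 9 to 48 per K15-SKO library, can show large differences at this depth.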
